A study of Mus musculus with 6 samples.

Results

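The genes described here are 34 genes of blood and lymphatic endothelium, taken by gene symbol from a list that runs from Pecam1 and Cdh5 to the lymphatic regulator Prox1. All 34 were among the 21829 genes of the deposited table, and 33 of them averaged 1 FPKM or more across the 6 libraries and so belonged to the 12539 genes that were tested. Prox1, with a mean of 0.696 FPKM, was the member below that level. FPKM is a fragment count scaled to transcript length and to library size, so that levels of different genes can be set side by side.

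RNA was sequenced from whole epididymal fat, a visceral white adipose depot that lies along the testis, of male C57BL/6J mice that were 20 weeks old and ate a normal diet. There were 3 libraries labelled ZFP251 KO (KO 1 to KO 3) and 3 labelled wild type (WT 1 to WT 3), and the series' design text calls the wild-type mice littermates. The stated question is the function of ZFP251, a zinc finger protein, in this depot. Neither the knockout allele nor the cells in which the gene was deleted could be read from the labels.

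Endothelial cells line every blood and lymph vessel. Vascular endothelial growth factors act on them through the receptor tyrosine kinases encoded by Kdr, Flt1 and Flt4, and angiopoietins through Tek, while VE-cadherin, claudin-5 and other junction proteins seal one cell to the next. Transcription factors of the ETS and SOX families, among them Erg and Sox17, keep the endothelial programme on. In white fat a dense capillary bed carries fatty acids and hormones to and from the adipocytes, which in turn make the growth factor VEGF-A.

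The targeted gene went against the labels. Zfp251 (GRCm38 chr15:76851609-76871435) had 6.27 ± 0.359 FPKM in the libraries labelled KO and 3.41 ± 0.408 FPKM in WT (SD, n = 3 each). The exact permutation test, two-sided, gave p = 0.1, the smallest value that 3 libraries against 3 allow. A gene-level value does not show which exons were read, so KO below always means a library labelled KO, and each direction is that of the labels. A library held from 11814 to 12813 genes at 1 FPKM or above. The labels number the samples but name no mouse, and every p-value therefore measures sample spread that may be partly technical.

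The tissue held a clear endothelial signal in every library. Of the 34 genes, 29 averaged 10 FPKM or more, and the median of the 34 means was 26.3 FPKM. None was listed at 0 in any library. Cldn5, which encodes the tight junction protein claudin-5, stood highest with a mean of 109 FPKM. Egfl7, a secreted endothelial protein with epidermal growth factor-like domains, followed. In KO 1 to KO 3, Pecam1, the adhesion molecule CD31 that marks these cells, was at 67.9, 70.5 and 61.2 FPKM, and in WT 1 to WT 3 at 75.6, 89.7 and 42.2 FPKM. The KO libraries lay below WT 1 and WT 2 and above WT 3. Prox1 and Flt4, which mark lymphatic vessels, were among the lowest members, and Tal1 and Selp, which blood cells also express, were low too.

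**Figure D1:**
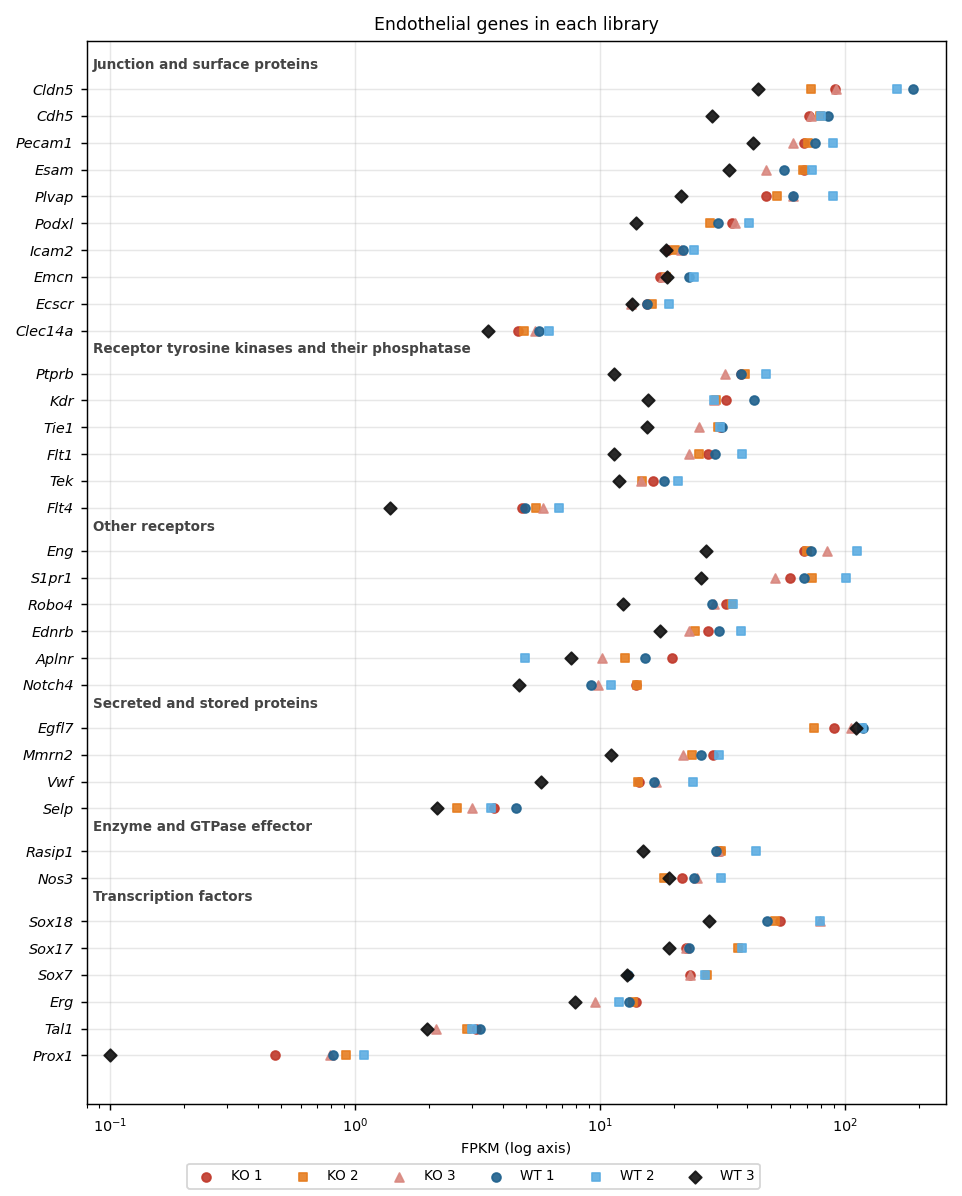
FPKM of the 34 endothelial genes on a log axis, grouped by role, with 1 point per library: KO 1 to KO 3 in red and orange, WT 1 and WT 2 in blue and WT 3 as black diamonds. WT 3 was the lowest library for 29 genes and WT 2 the highest for 23.

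WT 3 stood apart from every other library in these genes, and this touches all comparisons between the groups. It had the lowest value of the 6 libraries for 29 of the 34 genes. Among the 33 tested members, 28 were lower in WT 3 than in each of the other 5 libraries, against 27% of all genes tested. Of the 33, 32 were lower in WT 3 than in both WT 1 and WT 2, against 34.9% of all genes tested. The exception was Aplnr, the apelin receptor, which was at 7.6 FPKM in WT 3, below WT 1 (15.2 FPKM) but above WT 2 (4.95 FPKM). The median member in WT 3 had 47.9% of the mean of WT 1 and WT 2, and 18 members had under 50%. The FPKM of the 34 genes summed to 1119, 1104 and 1108 in KO 1 to KO 3, and to 1276, 1496 and 635 in WT 1 to WT 3. The FPKM of all genes summed to 637902 in WT 3 and to between 426966 and 472120 in the other 5 libraries. What this unlike total adds to the low member values was not tested. In these whole-tissue libraries fewer endothelial cells and less RNA per endothelial cell cannot be told apart.

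The members differed widely in how far WT 3 lay below the other wild-type libraries. Ptprb, the phosphatase that acts on the Tie receptors, was at 11.4 FPKM in WT 3, while WT 1 and WT 2 held 37.7 and 47.6 FPKM. Cldn5 in WT 3 had 25.2% of the mean of WT 1 and WT 2, Plvap, the diaphragm protein of fenestrated vessels, 28.4%, and Vwf, von Willebrand factor, 28.2%. Prox1 had 10.5%, from 0.1 FPKM in WT 3, a level so low that its ratio is imprecise. At the other end stood Egfl7 with 93.5%, Icam2, an adhesion molecule, with 81.2%, and Emcn, the mucin endomucin, with 78.9%.

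Long transcripts as a whole read lower in WT 3, and the members lay below that trend. On the log2(FPKM + 1) scale the difference of WT 3 from the mean of WT 1 and WT 2 had a median of 0.54 among the shortest and of -0.29 among the longest of 10 equal classes of all tested genes by length. The median member transcript had 3699 nt, against 3360 nt for all tested genes. The members' median difference was -0.96, against 0.06 for all tested genes, and the range over the members was -1.96 to -0.10. Across the 33 members the difference fell with log2 transcript length (Pearson r = -0.31, Spearman rho = -0.27, genes of the same libraries and so not independent). Over all tested genes these values were -0.36 and -0.43. With GC content the Pearson r was -0.31 in the members and -0.05 in all tested genes. After each library was corrected for transcript length and GC content, the members' median difference was again -0.96 and all 33 were below 0. Whether RNA quality or the piece of tissue taken accounts for the low values of WT 3 was not tested.

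**Figure D2:**
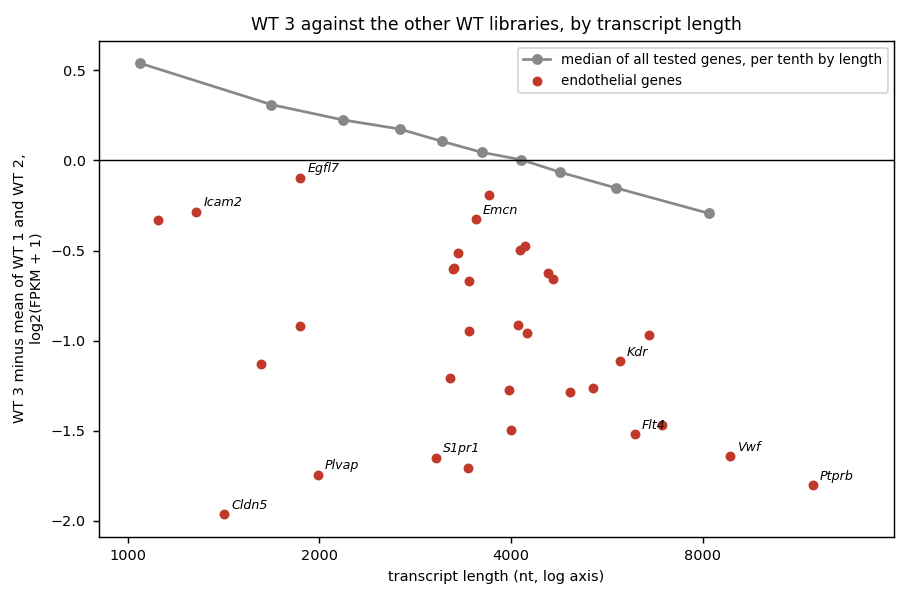
Difference of WT 3 from the mean of WT 1 and WT 2 in log2(FPKM + 1), plotted against transcript length on a log axis. Red points are the 33 tested endothelial genes and the grey line joins the medians of all tested genes in 10 classes by length, which run from 0.54 to -0.29. All 33 members lie below 0, Cldn5 lowest at -1.96.

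Between the groups, the direction depended on WT 3. No member passed limma's Benjamini-Hochberg adjusted threshold of 0.05 with all 6 libraries or without WT 3, and 0% of all 12539 genes did in either comparison. Without WT 1, 482 of all genes passed it, and none of them was a member. Zfp251, higher in KO by 0.78 on the log2 scale, was among them (limma adjusted p = 0.0409). With all libraries, 22 of the 33 tested members had a higher and 11 a lower mean in KO, against 59.2% lower among all tested genes, and the members' median log2 difference was 0.17 beside -0.05 for all tested genes. Without WT 3, 29 of the 33 were lower in KO, against 58% of all tested genes, and the median was -0.20 beside -0.03. Thus 18 members changed sign, all of them being higher in KO with WT 3 and lower without it, 11 were lower and 4 higher in both. That 1 direction follows from the values above. All 33 had WT 3 below the mean of WT 1 and WT 2, so leaving it out could only lower each difference. The lower level in KO without WT 3 rested more on WT 2 than on WT 1. With Prox1 counted, WT 2 lay above every KO library in 26 members, and WT 1 in 14. WT 1 lay between KO libraries in 15 members and below all of them in 5. The members made up 0.252% to 0.262% of the summed FPKM in KO, 0.270% in WT 1 and 0.319% in WT 2. The limma standard error of the KO minus WT difference, pooled over both groups, was smaller without WT 3: its median over the members was 0.30 with WT 3 and 0.16 without it. WT 3 was the library that stood apart in these genes, so a smaller spread without it is no separate result.

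At an unadjusted limma p under 0.05, with all libraries, 0 members were higher in KO, against 9.13% of all tested genes, and 1 was lower, against 4.43%. No member had every KO library above every WT library, against 10.1% of all tested genes, and 2 (Emcn and Egfl7) had every KO library below every WT library, against 12.2%. After median-ratio scaling or quantile normalization 0 members did, and 0 were lower at that p. Without WT 3, 0 members were higher at that p, against 8.01%, and 7 of 33 (21.2%) were lower, against 5.67%. In that comparison 0 members had every KO library above both WT libraries, against 14.1% of all tested genes, and 10 (30.3%) had every KO library below both, against 17.9%. The 7 were Cldn5, Emcn, Ednrb, Tek, Pecam1, Flt1 and Egfl7, and their limma adjusted p was 0.349 each.

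**Figure D3:**
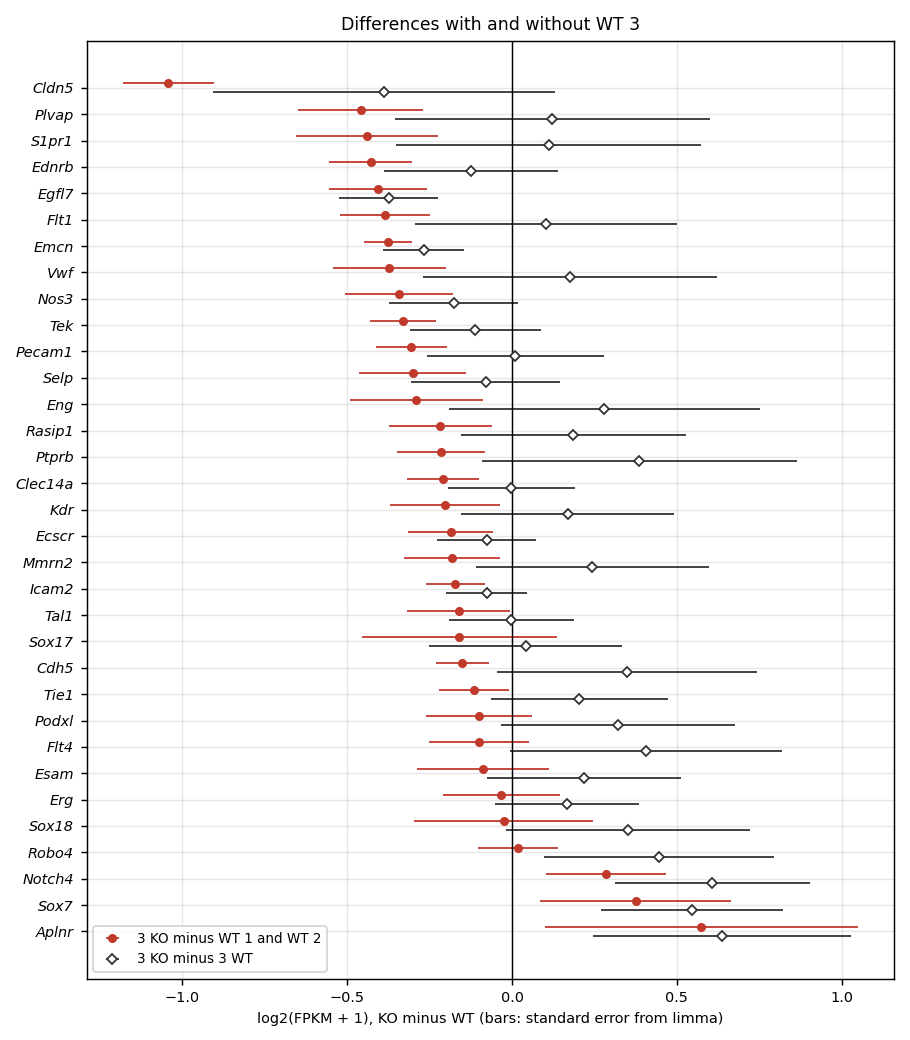
KO minus WT in log2(FPKM + 1) for the 33 tested endothelial genes, with limma standard errors as bars. Red circles set the 3 KO libraries against WT 1 and WT 2, and open diamonds set them against all 3 WT libraries. Without WT 3, 29 points lie below 0, from -1.04 for Cldn5, and Aplnr is highest at 0.57.

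The junction and surface proteins included Cldn5, the member with the largest difference without WT 3. With all libraries its difference was smaller than those of Aplnr, Notch4, Sox7, Robo4 and Flt4. Cldn5 (GRCm38 chr16:18776847-18778262) was at 91.4, 72.6 and 92.1 FPKM in KO 1 to KO 3, against 189.6, 162.8 and 44.4 FPKM in WT 1 to WT 3. The KO libraries lay together, between the high pair of wild-type libraries and WT 3. Without WT 3 the KO mean was 48.4% of the WT mean, a log2 difference of -1.04 ± 0.14 (SE; limma adjusted p = 0.349), and with WT 3 it was -0.39 ± 0.52 (limma adjusted p = 0.753). By unadjusted limma p without WT 3, Cldn5 ranked 10 among all 12539 genes tested. Emcn (GRCm38 chr3:137341067-137432185), which keeps leukocytes from adhering, had 17.6, 18.6 and 18 FPKM in KO and 23.2, 24.3 and 18.7 FPKM in WT. Every KO library lay below every WT library, WT 3 only just. Its log2 difference was -0.27 ± 0.12 with all libraries (limma adjusted p = 0.401) and -0.38 ± 0.07 without WT 3 (limma adjusted p = 0.349).

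The other 8 genes of this kind lay closer to WT than Cldn5. All 10 were lower in KO without WT 3, with a median of -0.20, and 5 were lower with it. Cdh5, VE-cadherin of the adherens junction, had 71.5, 79.5 and 72.5 FPKM in KO and 85.3, 80.2 and 28.7 FPKM in WT. KO lay just below WT 1 and WT 2 and far above WT 3, and the log2 difference was 0.35 ± 0.39 with WT 3 and -0.15 ± 0.08 without it. Pecam1 had 0.01 ± 0.27 and -0.31 ± 0.11. Plvap had a KO mean of 71.5% of the mean of WT 1 and WT 2, with KO 3 (61.5 FPKM) level with WT 1 (61.2 FPKM). Esam, an immunoglobulin adhesion molecule, Podxl, a sialomucin, Icam2, Ecscr, a cell surface regulator, and Clec14a, a C-type lectin, stood between 84.2% and 94.4% of that mean.

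Among the receptor tyrosine kinases, the members for VEGF and angiopoietin were lower in KO without WT 3, all 6 of them with Ptprb counted, by a median of -0.21. Flt1, a VEGF-A receptor that also acts as a sink for it, had 27.7, 25.5 and 23.1 FPKM in KO and 29.5, 38 and 11.4 FPKM in WT, and Kdr, the main VEGF-A receptor, 32.7, 29.6 and 29.2 FPKM in KO and 42.5, 29.1 and 15.7 FPKM in WT. For Flt1 the KO libraries lay between WT 3 and the other WT libraries, while for Kdr WT 2 lay level with KO 3 and WT 1 stood alone above. Without WT 3 the log2 difference was -0.39 ± 0.14 in Flt1 and -0.20 ± 0.17 in Kdr, and with it 0.10 ± 0.40 and 0.17 ± 0.32. Tek, the angiopoietin receptor Tie2, had 16.5, 14.8 and 14.7 FPKM in KO and 18.2, 20.9 and 12 FPKM in WT, a log2 difference of -0.11 ± 0.20, or -0.33 ± 0.10 without WT 3. Its partner Tie1 had -0.12 ± 0.11 and Flt4, the VEGF-C receptor of lymph vessels, -0.10 ± 0.15 without WT 3.

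The other receptors went in different directions, and 3 of the 4 members higher in KO in both comparisons were among them. Notch4 (GRCm38 chr17:34564268-34588503), the endothelial Notch receptor, had 14, 14.1 and 9.83 FPKM in KO and 9.15, 11.1 and 4.66 FPKM in WT. The groups overlapped through KO 3, which lay below WT 2. Its log2 difference was 0.61 ± 0.30 (limma adjusted p = 0.429), and 0.28 ± 0.18 without WT 3. Aplnr had 19.6, 12.6 and 10.2 FPKM in KO and 15.2, 4.95 and 7.6 FPKM in WT, with WT 1 among the KO libraries, and a log2 difference of 0.64 ± 0.39, or 0.57 ± 0.47 without WT 3. Robo4, which stabilises vessels, had 0.45 ± 0.35 with WT 3 and 0.02 ± 0.12 without it. Ednrb, the endothelin B receptor, had 27.7, 24.4 and 23.1 FPKM in KO and 30.5, 37.7 and 17.6 FPKM in WT. All KO libraries were below WT 1 and WT 2, and without WT 3 the difference was -0.43 ± 0.13. S1pr1, the sphingosine-1-phosphate receptor, had -0.44 ± 0.22 and Eng, the TGF-beta co-receptor endoglin, -0.29 ± 0.20 without WT 3, and in both WT 2 was the highest library and WT 1 lay among the KO libraries.

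Among secreted and stored proteins, Egfl7 (GRCm38 chr2:26580014-26593120) was the other gene with no overlap between the groups. It had 90, 74.6 and 105.6 FPKM in KO and 119, 118.1 and 110.8 FPKM in WT. The WT libraries lay close together, WT 3 included, and the KO libraries were spread below them. The log2 difference was -0.37 ± 0.15 (limma adjusted p = 0.341) and -0.41 ± 0.15 without WT 3. Vwf, Selp (P-selectin, stored with von Willebrand factor) and Mmrn2, a matrix protein that binds Clec14a, had -0.37 ± 0.17, -0.30 ± 0.16 and -0.18 ± 0.14 without WT 3. Of the 2 effectors, Nos3, endothelial nitric oxide synthase, had 21.7, 18.3 and 24.9 FPKM in KO and 24.3, 31.1 and 19.2 FPKM in WT, and Rasip1, which shapes the vessel lumen, had 30.9, 31.1 and 30.4 FPKM in KO and 29.9, 43.3 and 15 FPKM in WT. Rasip1 was nearly equal in the 3 KO libraries, WT 1 lay just below them, and WT 2 and WT 3 lay far to either side.

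The 5 tested transcription factors had a median difference of -0.03 without WT 3, the nearest to 0 of the 6 roles. Erg, the ETS factor of endothelial identity, had 14.1, 13.6 and 9.52 FPKM in KO and 13.1, 12 and 7.94 FPKM in WT, a log2 difference of 0.17 ± 0.22, or -0.03 ± 0.18 without WT 3. The SOX factors varied within both groups. Sox7 had 23.3, 27.4 and 23.4 FPKM in KO and 13, 26.9 and 12.9 FPKM in WT, so that WT 2 lay with the KO libraries, and its difference was 0.55 ± 0.28, or 0.37 ± 0.29 without WT 3. Sox17 and Sox18 had -0.16 ± 0.30 and -0.02 ± 0.27 without WT 3, and for Sox17 KO 2 (36.7 FPKM) and WT 2 (38.1 FPKM) were the high libraries. Tal1, a factor shared with blood progenitors, had -0.16 ± 0.16. Prox1 had 0.472, 0.921 and 0.789 FPKM in KO and 0.81, 1.09 and 0.1 FPKM in WT.

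The start regions of Cldn5, Emcn and Notch4 are shown because Cldn5 had the largest difference without WT 3, Emcn had no overlap between the groups with all libraries, and Notch4 was higher in KO in both comparisons. They run from 250 bases before to 50 bases after the RefSeq start, on the plus strand of GRCm38.p6, at chr16:18776597-18776896 for Cldn5, chr3:137340828-137341127 for Emcn and chr17:34564045-34564344 for Notch4. Capitals mark, on either strand, the letters CGGAAG bound by many ETS factors, or the related ETS form that starts with A in place of the first base, AGGAAG.
Cldn5: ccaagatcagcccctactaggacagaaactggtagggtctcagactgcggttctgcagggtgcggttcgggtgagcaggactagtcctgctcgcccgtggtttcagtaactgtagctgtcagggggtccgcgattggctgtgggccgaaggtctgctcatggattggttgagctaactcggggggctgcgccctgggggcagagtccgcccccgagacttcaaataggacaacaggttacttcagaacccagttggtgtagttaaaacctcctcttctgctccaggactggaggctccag
Emcn: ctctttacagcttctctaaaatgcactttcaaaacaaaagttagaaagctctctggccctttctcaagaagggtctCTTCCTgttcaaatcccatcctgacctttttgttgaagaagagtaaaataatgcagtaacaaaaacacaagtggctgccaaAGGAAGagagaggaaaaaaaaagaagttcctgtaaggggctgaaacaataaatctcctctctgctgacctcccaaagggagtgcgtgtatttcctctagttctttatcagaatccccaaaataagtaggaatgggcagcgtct
Notch4: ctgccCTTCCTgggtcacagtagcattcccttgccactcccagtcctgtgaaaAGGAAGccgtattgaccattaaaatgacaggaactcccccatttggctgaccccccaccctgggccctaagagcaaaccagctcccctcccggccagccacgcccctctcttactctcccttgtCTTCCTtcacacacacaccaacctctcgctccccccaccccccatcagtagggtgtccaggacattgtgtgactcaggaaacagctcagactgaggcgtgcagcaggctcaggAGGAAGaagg

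The Emcn window held 2 matches and the Notch4 window 4, and these letters were not in the Cldn5 window. RefSeq windows were matched for 18 of the 34 genes, and 11 of their 24 windows (45.8%) held either form, against 46.5% of all 32851 windows, so the members stood at the background. CGGAAG was in 1 member window (4.17%) and in 16.9% of all windows, and AGGAAG, added after that count was seen, in 11 (45.8%) against 35.4%. Of the letters that SOX factors bind, ACAAAG was in 16.7% of member windows, against 18.7% of all windows, and the shorter form ACAAT in 25%, against 31%. The letters that GATA factors bind, AGATAA, were in 12.5% of member windows, against 11.2%, and those of the core promoter box, TATAAA, in 12.5%, against 13.6%. All were searched on both strands. The windows of different starts of a gene can overlap, and the short motifs can overlap each other.

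The ligands of these receptors were measured in the same libraries. Vegfa, made by fat cells among others, had 86.1, 92.3 and 87 FPKM in KO and 151.3, 110.6 and 137 FPKM in WT. Every KO library was below every WT library, WT 3 included, and the log2 difference was -0.57 (limma adjusted p = 0.223). Pgf, placental growth factor, which binds Flt1, was the opposite, with 7.55, 6.35 and 3.24 FPKM in KO and 2.73, 2.11 and 0.545 FPKM in WT and a difference of 1.30 (limma adjusted p = 0.231). Apln, which encodes apelin, the ligand of Aplnr, had 7.24, 7.73 and 4.85 FPKM in KO and 3.27, 2.74 and 2.48 FPKM in WT, again with no overlap, and a difference of 0.97 (limma adjusted p = 0.223). Of the 7 VEGF ligands and neuropilins 1 was higher and 1 lower at unadjusted p under 0.05 with all libraries, against 9.13% and 4.43% of all tested genes. Of the 9 tested genes of apelin, endothelin, sphingosine-1-phosphate and Slit signalling 3 were higher at that p with all libraries, against 9.13% of all tested genes, and 1 was lower. The 3 were Apln with Sphk1 and Spns2, which make and export sphingosine-1-phosphate. Without WT 3 the count was 1 higher, Apln, against 8.01%, and 1 lower, against 5.67%. The lower gene was Sphk2 with all libraries and Ece1 without WT 3, both named after their values were seen. Of the 4 Tie2 ligand genes and the 11 genes of the endoglin pathway 0 were called at that p in either direction.

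Among 11 other Notch genes 10 had higher means in KO with all libraries and 5 without WT 3, against 5112 and 5271 of all 12539 tested genes. In both comparisons 1 of the 11, Hey1, was higher at unadjusted limma p under 0.05, against 9.13% and 8.01% of all tested genes, and 0 were lower. Hey1, a target of Notch that marks arteries, had 8.2, 6.67 and 7.57 FPKM in KO and 5.67, 3.91 and 4.21 FPKM in WT, with no overlap and a log2 difference of 0.61 (limma adjusted p = 0.223), or 0.56 without WT 3. Dll4, the endothelial Notch ligand, had 0.41 with WT 3 and 0.29 without it, and Jag2 had 0.44 and 0.13. The arterial connexin Gja4, which is not in the Notch list, had 31.5, 23.9 and 13.7 FPKM in KO and 13.7, 9.68 and 6.37 FPKM in WT. KO 3 was level with WT 1. Of the 9 tested arterial genes 8 were higher in KO with all libraries, but without WT 3 only 3 were higher and 6 lower.

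Genes of each vessel type were mostly low in WT 3 too. Of the tested genes WT 3 lay below WT 1 and WT 2 in 7 of 9 arterial, 6 of 7 venous, 9 of 9 lymphatic and 8 of 11 capillary genes. Among all tested genes the share was 34.9%. The venous and the lymphatic list each hold 2 of the members. Without WT 3, capillary genes were lower in KO in 10 of 11, against 58% of all tested genes, and 6 of them at unadjusted p under 0.05, against 5.67% (median -0.33). With all libraries 8 of the 11 were lower and 0 at that p, against 4.43%. Car4, a carbonic anhydrase of fat capillaries, had 30.6, 41.2 and 39.6 FPKM in KO and 57.1, 60.2 and 37.4 FPKM in WT. Cd36 and Fabp4 of that list are also abundant in adipocytes. Arterial, venous and lymphatic genes had medians of -0.10, -0.18 and -0.11 in that comparison. Of the 9 tested lymphatic genes 7 were higher in KO and 2 lower with all libraries, and 3 higher and 6 lower without WT 3. The 3 with the smallest p, Gja1, Pdpn and Itga9, were higher at unadjusted p under 0.05 with all libraries, against 9.13% of all tested genes. Without WT 3, 2 of them were, against 8.01%. Each of the 3 is also made by other cells. Gja1, connexin 43, had 151.4, 157.6 and 83.6 FPKM in KO and 78.5, 20.2 and 19 FPKM in WT. Of 24 other genes found across endothelium 19 were lower in KO without WT 3, against 58% of all tested genes (median -0.19). At unadjusted p under 0.05 6 of them were, against 5.67%, and with all libraries 2 were lower at that p, against 4.43%. In WT 3, 17 of the 24 were lower than in WT 1 and WT 2, against 34.9%. The GTPase Gimap6, with 24.3, 21.3 and 21.6 FPKM in KO and 30.9, 30.9 and 29.7 FPKM in WT, was lower in KO by 0.43 on the log2 scale (limma adjusted p = 0.223) with no overlap between the groups, and Sox13 was higher by 0.68 (limma adjusted p = 0.223). Of 16 other endothelial transcription factors 0 were called at unadjusted p under 0.05 with all libraries. Without WT 3, 13 were lower in KO, against 58% of all tested genes, and 4 of them at that p, against 5.67%. Tcf15, 1 of these 4, is also among the 6 capillary genes.

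Other cell types moved with the libraries too. WT 3 was the highest library for 7 of the 10 adipocyte genes, and not for Lipe, Pnpla2 and Plin4, which were named after their values were seen. The 10 genes summed to between 28519 and 34670 FPKM in KO and to 39460, 40503 and 74457 FPKM in WT 1 to WT 3. Cfd and Fabp4 made up much of this, with sums between 19292 and 24247 FPKM in KO and of 27767, 28735 and 57089 FPKM in WT 1 to WT 3, and the other 8 genes summed to between 9146 and 10422 FPKM in KO and to 11693, 11768 and 17368 FPKM in WT 1 to WT 3. Adipoq, adiponectin, had 2097, 2214 and 2496 FPKM in KO and 2792, 2844 and 5889 FPKM in WT. Mural cell genes were low in WT 3 too, with 11 of 13 lower in WT 3 than in WT 1 and WT 2, against 34.9% of all tested genes. Their sums were between 522 and 586 FPKM in KO and between 371 and 781 FPKM in WT, highest in WT 2. Acta2, smooth muscle actin, had 85.7, 70.3 and 70.5 FPKM in KO and 58.6, 144.3 and 19.1 FPKM in WT, and Pdgfrb, the pericyte receptor, 20.5, 19.8 and 22 FPKM in KO and 22.9, 25.6 and 12.3 FPKM in WT. WT 3 was the low library for both. The 14 multiciliated epithelial genes in the table summed to between 127 and 213 FPKM in KO and between 43.1 and 95.3 FPKM in WT. All 11 tested had every KO library above every WT library, against 10.1% of all tested genes. Foxj1, their regulator, was at 44.2, 43.2 and 20 FPKM in KO, at 13.9 FPKM in WT 1 and 0.034 FPKM in WT 2, and listed at 0 in WT 3. WT 2 and WT 3, the libraries nearly without Foxj1, were the highest and the lowest in most endothelial genes. The part of these other cell types in the endothelial differences was not tested.

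**Figure D4:**
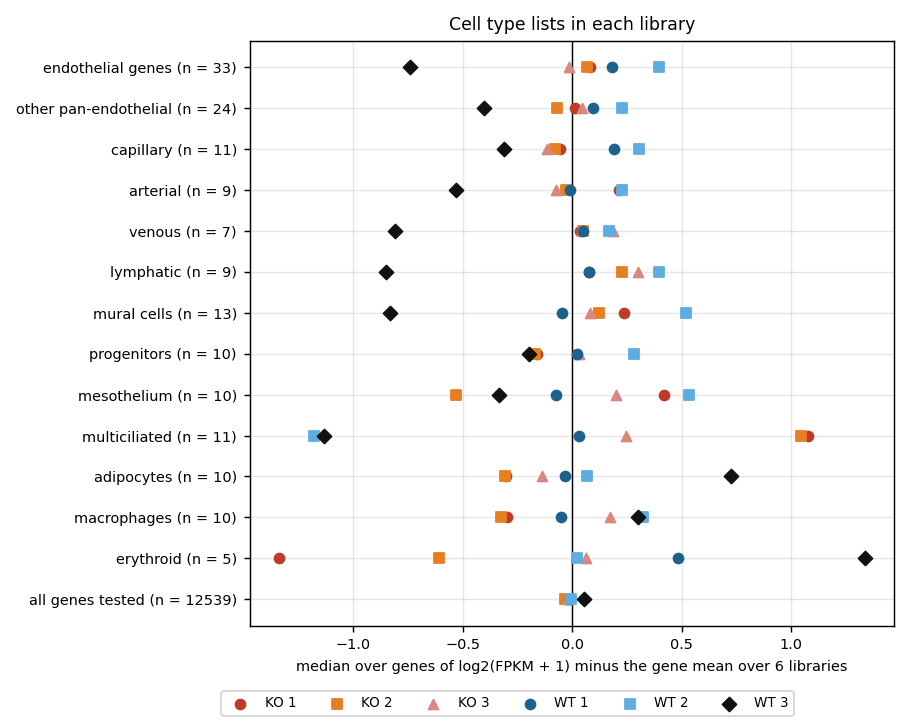
Median over the tested genes of each list of log2(FPKM + 1) minus the gene's mean over 6 libraries, 1 point per library, KO in red and orange, WT 1 and WT 2 in blue and WT 3 as black diamonds. The endothelial genes lie between -0.01 and 0.08 in KO, at 0.18 and 0.40 in WT 1 and WT 2 and at -0.74 in WT 3, where adipocyte genes lie at 0.73.

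Blood and immune cells, which also express some members, had a different order. The 5 tested erythroid genes, of 8, were all lower in KO (median -1.23), against 59.2% of all tested genes. At unadjusted p under 0.05 5 were lower with all libraries, against 4.43%, and 1 without WT 3, against 5.67%. The 8 together summed to between 505 and 1372 FPKM in KO and between 1300 and 3534 FPKM in WT, with WT 3 highest. Of 10 platelet genes 2 were tested, Pf4 and Ppbp, both lower in KO, and Gp1ba, Gp1bb and Gp6, which define platelets, were listed at 0 in several libraries. The 10 platelet genes summed to between 79.9 and 92.9 FPKM in KO and between 108 and 153 FPKM in WT. Pf4 made up nearly all of this, with 78.5, 77.7 and 90.1 FPKM in KO and 111.1, 104.4 and 147.1 FPKM in WT. Itga2b overlapped, with 0.849, 0.877 and 0.734 FPKM in KO and 0.542, 0.787 and 0.953 FPKM in WT. The 9 lymphocyte genes in the table summed to between 5.25 and 7.74 FPKM in KO and between 9.39 and 14.3 FPKM in WT. All 10 macrophage genes were lower in KO (median -0.38), against 59.2% of all tested genes. Their sums were between 967 and 1323 FPKM in KO and between 1100 and 1550 FPKM in WT. WT 3 had the highest sum in each of these 4 lists. It was the lowest library for 29 of all 34 members, among them Selp, Tal1, S1pr1 and Icam2, which blood cells also express. The part of blood cells in the member values was not tested. Of the 10 mesothelial genes, none of them a member, 5 were higher and 5 lower in KO (median 0.03). The keratins Krt8, Krt18 and Krt19, found in many epithelia, summed to between 58.3 and 115 FPKM in KO and between 7.55 and 50.3 FPKM in WT, and the other 7 genes to 80.0, 35.9 and 68.5 FPKM in KO and 56.8, 102.9 and 48.0 FPKM in WT, with overlap. The 10 genes of adipose progenitors summed to between 1418 and 1820 FPKM in KO and between 1722 and 2118 FPKM in WT.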

How the data were processed

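Per the submitters' processing notes, reads were processed with STAR 2.5.4, Cufflinks and Cuffdiff 2.2.1 on mm10. The annotation, filters, strand setting and depth scaling are not stated there. The table the authors deposited has 1 column per library, read as FPKM from the tools named and from values that are not whole. FPKM holds no counts, so no count test was run; low values gave depths between 0.651 and 0.946 of WT 1 for KO 1 to KO 3 and WT 2; the estimate for WT 3, 1.04, rests on 11.9% of its low genes and is not relied on, and total depth is unknown. Of 21853 rows, 24 repeated a symbol and the highest was kept.

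Genes averaging 1 FPKM or more were tested as log2(FPKM + 1), which understates changes of low genes, across all 12539 genes with limma 3.58.1 in R 4.3.3 (group only, mean-variance trend, Benjamini-Hochberg), and again without WT 3. The fit was tested on simulated data. Lengths and GC content were those of the longest GENCODE vM21 transcript (GRCm38, the assembly of mm10). The named genes were all members, Zfp251, up to 3 genes of each list with the smallest p, and Foxj1, Adipoq, Pdgfrb and Acta2. Members, lists and the comparison without WT 3 were chosen with earlier results of these data known. The labels do not say whether equal replicate numbers pair libraries, and the main fits treated them as unpaired. Alternatives were other pseudocounts, filters and scalings, no trend, sample weights, a length and GC correction, a replicate block and leaving out each library.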

Additional observations from a re-analysis of the deposited data

How the results depend on the processing

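No member passed limma's adjusted threshold under any alternative but sample weights, and the cause of the changes below was not tested. Signs changed in large differences too: without WT 3, Aplnr (0.57) was -0.15 when WT 2 was also left out, and Sox7 (0.37) was -0.12 when WT 1 was. FPKM without counts leaves total depth unknown, and 3 libraries against 3 cannot give an exact p below 0.1. Of the 12539 genes tested, 1700 were at unadjusted limma p under 0.05 in either direction with all libraries, and 1716 without WT 3. These counts were 3914 and 2055 with sample weights, 2112 and 1854 after correction for length and GC content, and 1714 and 1992 with the replicate block. Leaving out 1 library at a time from all libraries gave 866 to 2195. Member counts below are to be read beside these. Apart from leaving out WT 3, no share of all tested genes without overlap is given for the alternatives. Member counts without overlap under them are therefore not results about the members. With a pseudocount of 0.1, with all libraries, the log2 difference was Clec14a 0.00434 and Tal1 0.000883. With a pseudocount of 0.5, with all libraries, the log2 difference was Clec14a 0.00109. After median-ratio scaling, with all libraries, 0 members were lower in KO at unadjusted p under 0.05 and 0 members had every KO library below every WT library, and the log2 difference was Clec14a 0.0401 and Tal1 0.0339. After median-ratio scaling, without WT 3, the log2 difference was Sox18 0.00629. After quantile normalization, with all libraries, 0 members were lower in KO at unadjusted p under 0.05 and 0 members had every KO library below every WT library. After quantile normalization, without WT 3, the log2 difference was Esam 0.00980 and Sox18 0.0456. With sample weights, with all libraries, 4 members passed the limma adjusted threshold, 2 members were higher in KO at unadjusted p under 0.05 and 3 members were lower in KO at unadjusted p under 0.05, and the log2 difference was Pecam1 -0.16, Cdh5 -0.15, Kdr -0.33, Flt1 -0.15, Tie1 -0.0457, Eng -0.0615, Vwf -0.17, Plvap -0.27 and S1pr1 -0.15. Zfp251 stayed higher in KO, by 0.64, and passed the adjusted threshold with these weights (limma adjusted p = 0.0367). With sample weights, without WT 3, the log2 difference was Esam 0.00965 and Erg 0.0674. After correction for length and GC content, with all libraries, 1 member had every KO library below every WT library, and the log2 difference was Pecam1 -0.0225, Flt1 -0.0158, Vwf -0.12, Sox17 -0.0303, Clec14a 0.0156 and Rasip1 -0.0380. After correction for length and GC content, without WT 3, 11 members were lower in KO at unadjusted p under 0.05 and 17 members had every KO library below every WT library, and the log2 difference was Robo4 -0.0624. The replicate number was also used as a block, although the labels do not state such a pairing. With this block and all libraries, 3 members were higher in KO at unadjusted p under 0.05 and 0 were lower. With this block, without WT 3, 2 members were higher in KO at unadjusted p under 0.05 and 4 were lower. The log2 difference was then Esam 0.0807 and Erg 0.13. With no filter on low values, without WT 3, 4 members were lower in KO at unadjusted p under 0.05. Leaving out 1 library at a time, with all libraries as the start, 0 to 3 members were higher in KO at unadjusted p under 0.05, 0 to 7 members were lower in KO at unadjusted p under 0.05, 0 to 5 members had every KO library above every WT library and 2 to 10 members had every KO library below every WT library. The log2 differences that changed sign or call ran as Pecam1 -0.31 to 0.23, Cdh5 -0.15 to 0.62, Kdr -0.20 to 0.49, Flt1 -0.39 to 0.44, Flt4 -0.10 to 0.76, Tek -0.33 to 0.0453, Tie1 -0.12 to 0.37, Eng -0.29 to 0.72, Esam -0.0881 to 0.46, Erg -0.0330 to 0.33, Vwf -0.37 to 0.58, Sox17 -0.19 to 0.32, Sox18 -0.0248 to 0.72, Plvap -0.46 to 0.55, Ptprb -0.21 to 0.77, Mmrn2 -0.18 to 0.52, Clec14a -0.21 to 0.13, Ecscr -0.19 to 0.0490, Rasip1 -0.22 to 0.52, Tal1 -0.16 to 0.11, Selp -0.30 to 0.10, Podxl -0.10 to 0.63, Icam2 -0.17 to 0.00473, S1pr1 -0.44 to 0.53, Ednrb -0.43 to 0.10 and Zfp251 0.65 to 0.78. Leaving out 1 library at a time, without WT 3 as the start, 0 to 1 member were higher in KO at unadjusted p under 0.05, 3 to 13 members were lower in KO at unadjusted p under 0.05, 0 to 5 members had every KO library above every WT library and 13 to 25 members had every KO library below every WT library. The median over the members ran from -0.33 to -0.13, and it was -0.33 when WT 1 was left out, so that WT 2 alone stood for WT. The log2 differences that changed sign or call ran as Kdr -0.47 to 0.0632, Flt4 -0.29 to 0.0941, Eng -0.60 to 0.0177, Esam -0.27 to 0.10, Erg -0.13 to 0.13, Robo4 -0.12 to 0.16, Sox7 -0.12 to 0.87, Sox17 -0.51 to 0.19, Sox18 -0.38 to 0.33, Rasip1 -0.48 to 0.0422, Aplnr -0.15 to 1.30 and Podxl -0.30 to 0.10. The 4 members that passed with sample weights (4.02 for WT 1, 0.47 for WT 2 and 0.14 for WT 3, so that WT 1 carries most of the WT mean) were Emcn (-0.35, limma adjusted p = 0.0391), Egfl7 (-0.44, limma adjusted p = 0.0496), Cldn5 (-1.05, limma adjusted p = 0.0441) and Sox7 (0.76, limma adjusted p = 0.048), beside 970 of all genes; without WT 3 and with equal weights 0 members passed, and Sox7 had 0.37.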
